A study of Rattus norvegicus with 3 samples.

Results

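Cajal-Retzius cells are the Reln-rich, early-born glutamatergic neurons of the cortical marginal zone. Here they were selected on the raw counts of unique molecular identifiers (UMIs). A member had at least 5 Reln UMIs and at least 1 UMI of at least 2 of the 6 genes Lhx5, Lhx1, Ebf3, Ndnf, Cacna2d2 and Car10. The rule found 168 members among 15327 kept cells, which are the barcodes that passed a minimum of 1000 detected genes and a maximum of 10% mitochondrial UMIs. The study profiled dissociated primary cells of the cerebral cortex of wildtype rat embryos (Rattus norvegicus) by droplet-based single-cell RNA sequencing. There were 3 libraries, labelled embryonic day 14, 16 and 18, and E14, E16 and E18 stand here for the libraries so labelled. No group differed in genotype or treatment, and how many embryos went into a library is not given. The labels' protocol text also covers culture, oligonucleotide multiplexing and sorting of human cells, which does not match primary rat cells, so which of those steps apply is not known.

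These neurons arise mostly from the borders of the pallium (the cortical hem, the septum and the pallial-subpallial boundary) and migrate over the cortical surface. They secrete reelin, an extracellular glycoprotein that acts through the receptors Vldlr and Lrp8 and the adaptor Dab1 to position migrating cortical neurons. Many of them express the transcription factor p73 (Tp73) and most are lost after birth.

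With 1 library per label, no difference between libraries has a replicate check and no p-value is given. Intervals are exact 95% intervals (Poisson for summed counts, Clopper-Pearson for shares) and cover counting error only. A level of 0 UMIs is instead read as up to 3 UMIs over all members of the library, a fixed floor that lies below the exact upper bound, and folds against 0 use this floor. Levels are counts per 1e+06 UMIs (CPM), from UMIs summed over the cells of a class in a library, and log2 ratios were taken after adding 10 CPM. A gene counts as past the fold where that ratio is at least 1 or at most -1 and the higher class has at least 50 CPM. The order of the labels does not match the stage-linked genes outside the members. The share of globin UMIs that came from embryonic globin genes, over all barcodes, was 2.57% in E14, 67.4% in E16 and 22.0% in E18. In progenitor-like cells Hmga2, a gene of early progenitors, was at 10.1, 218 and 19.9 CPM, and Aldoc, a gene of later radial glia, at 658, 15.4 and 209 CPM. E16 was thus highest in both early measures and E14 in the late one, which goes against the label order, and no difference between libraries is read here as a change with embryonic day. The libraries shared 17 barcodes (E14 and E16), 13 (E14 and E18) and 12 (E16 and E18), and no barcode was a member in more than 1 library.

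Members made up 0.360% of kept cells in E14 (16 of 4444, interval 0.206 to 0.584%), 1.64% in E16 (85 of 5193, 1.31 to 2.02%) and 1.18% in E18 (67 of 5690, 0.914 to 1.49%). E14 was lowest, and its interval did not meet those of the other libraries. Depth enters the rule because it sets UMI minimums: members had medians of 21442.5, 9964 and 12581 UMIs in label order. When every cell was thinned to 5000 UMIs, leaving out 190, 227 and 229 shallower cells, the shares were 0.235% (10 of 4254), 0.805% (40 of 4966) and 0.824% (45 of 5461). At equal depth E16 and E18 could not be told apart, while E14 stayed below both. The cell filter also bears on these shares: 8 further barcodes in E14, 11 in E16 and 5 in E18 met the gene rule but failed the filter, and 8, 11 and 4 of these exceeded the mitochondrial maximum.

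**Figure D1:**
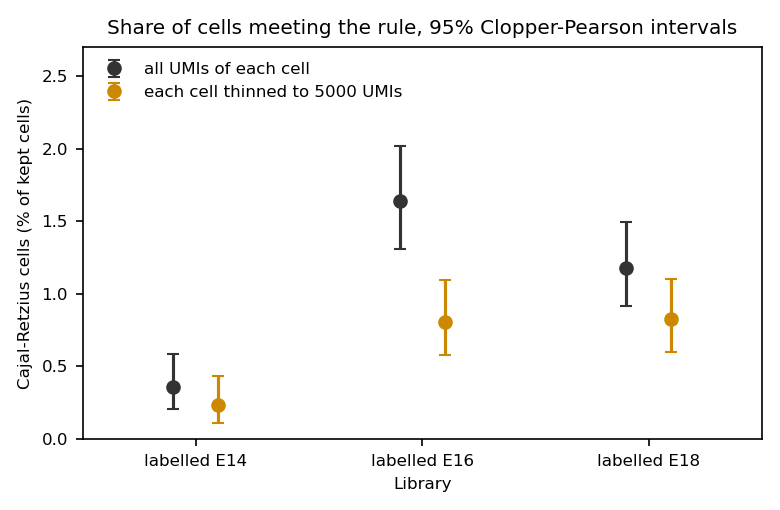
Share of kept cells that met the rule (y axis, %) in each library (x axis), from all UMIs (black) and after thinning to 5000 UMIs (orange), with 95% Clopper-Pearson intervals. E16 lies above E18 with all UMIs, at 1.64% and 1.18%, and level with it after thinning, at 0.805% and 0.824%, and E14 is lowest both ways.

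The genes that chose the members are given as a description. Reln was at 7489 CPM in E14 (7192 to 7796), 1439 in E16 (1367 to 1513) and 4392 in E18 (4264 to 4524). In single members it ran from 51 to 246 UMIs in E14 (median 157), from 5 to 81 in E16 (median 11) and from 5 to 302 in E18 (median 52). Every E14 member lay far above the threshold, and many E16 members lay close to it: 37 of 85 had under 10 Reln UMIs, against 9 of 67 in E18 and none of 16 in E14. Lhx1 and Lhx5 encode LIM-homeodomain factors. Lhx1 was at 176, 178 and 210 CPM in label order and Lhx5 at 40.8, 27.5 and 38.7 CPM. Ebf3, which encodes a factor of the early B-cell factor family, was at 170, 243 and 198 CPM. Cacna2d2, a calcium channel subunit, was at 192, 137 and 105 CPM and Car10, a carbonic anhydrase-related protein, at 34.6, 32.2 and 42.7 CPM. Those 6 genes were detected in members of every library, and Ndnf was not. Ndnf, which encodes a secreted neuron-derived factor, was at 333 CPM in E14, with a UMI in 14 of 16 members, and at 20.9 CPM in E18, with a UMI in 9 of 67. It had 0 UMIs in the 85 E16 members, and the floor of 3 UMIs over these members is 2.84 CPM. Against that floor E14 was at least 117-fold higher and E18 at least 7.34-fold higher.

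Cells just outside the rule show how it splits a range. E16 held 43 kept cells with at least 5 Reln UMIs and exactly 1 of the other 6 genes, against 38 members with exactly 2, and 20 cells with 3 or 4 Reln UMIs and at least 2 of the others. In those 20 cells Tp73 was at 377 CPM (297 to 471), beside 334 CPM (283 to 393) in the E16 members with 5 to 9 Reln UMIs. The 60 E16 cells with at least 5 Reln UMIs and fewer than 2 of the others had Tp73 at 31.9 CPM (21.4 to 45.9), Nhlh2 at 160 CPM and Calb2 at 491 CPM. Thus in E16 the near misses on Reln carried Tp73 as the members did, and the near misses on the other genes carried far less of it.

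Tp73, the gene of p73, was not used by the rule and served to check the label. It was at 270 CPM in E14 members (216 to 334), 325 in E16 (291 to 361) and 297 in E18 (264 to 333), against 0.105, 1.92 and 0.194 CPM in the excitatory neurons of the same libraries. A Tp73 UMI was found in 15 of 16, 74 of 85 and 59 of 67 members, and in 0.158%, 2.49% and 0.640% of the other kept cells. After thinning to 5000 UMIs it was found in 60%, 75.6% and 76.1% of members. In thinned excitatory neurons it was found in 0 of 3631 cells in E14 (interval up to 0.102%), 0.335% in E16 and 0.0637% in E18. Before thinning, those neurons had median depths of 11371.5, 9385.5 and 9617 UMIs. The intervals of the members' CPM overlapped between all 3 libraries, unlike those of Reln, and the name Cajal-Retzius cells is used with that check. It did not hold for every member. Some met the rule through Cacna2d2 and Car10 alone and had no UMI of Tp73, Nhlh2 or Calb2. They include E16 cells of 14984, 20193, 29136 and 39004 UMIs and an E18 cell of 21984 UMIs. Another, the deepest E16 member with 52107 UMIs, added only 1 Lhx5 UMI. Members had medians of 9964 UMIs in E16 and 12581 in E18, so such deep cells weigh more in the sums. The markers Reln, Lhx5, Lhx1 and Ebf3 were detected in every library and Ndnf in E14 and E18, but they are part of the rule. The rule did not take every Tp73 cell: of kept cells with at least 3 Tp73 UMIs, 13 of 13 were members in E14, 55 of 128 in E16 and 48 of 66 in E18.

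Transcripts of other cell types were counted beside these. In the 16 E14 members the 7 endothelial and mural, 7 microglial and 7 meningeal markers were all at 0. In E16 and E18 members the endothelial and mural markers summed to 5.68 and 20.9 CPM, against 2.37 and 3.19 CPM in excitatory neurons, with 17 of the E18 UMIs in 1 member. The microglial markers summed to 6.63 and 2.98 CPM, with 6 of the E16 UMIs in 1 member, and the meningeal markers to 7.58 and 9.93 CPM. The 8 intermediate progenitor markers summed to 402, 1039 and 1477 CPM in label order, against 1199, 2836 and 2202 CPM in excitatory neurons. The 10 GABAergic markers summed to 12.6, 52.1 and 9.93 CPM in members, against 2614, 2580 and 2064 CPM in GABAergic cells of the same libraries, and 1 E16 member held 34 of these UMIs. Radial glia markers summed to 182 CPM in E14, 1277 in E16 and 872 in E18, against 830, 1081 and 1172 CPM in excitatory neurons. Cycling markers summed to 97.4, 818 and 406 CPM, against 480, 2409 and 1448 CPM. Of these sums, only that of radial glia markers in E16 was higher in members. Sox2 reached at least 3 UMIs in 0, 11 and 6 members, and Mki67, Top2a and Cenpf together at least 3 UMIs in 0, 14 and 7. A single E16 member carried 27186 globin UMIs, another 522 UMIs of the choroid plexus gene Ttr, and 1 E18 member 715 Ttr UMIs. In all 0, 15 and 11 members met at least 1 of these marks (Sox2, cycling genes, 100 globin or 100 Ttr UMIs). Whether they are doublets, precursors or cells with free RNA was not tested, and values without them are given where they matter.

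The comparison cells are excitatory neurons of the same library, with at least 3 UMIs of Neurod2 and Neurod6 together, no Gad1 or Gad2 and at most 1 Reln UMI (3746, 612 and 3210 cells in label order). Cycling cells were not left out of this class. Its cycling markers summed to 480, 2409 and 1448 CPM in label order, beside 2866, 3658 and 3355 CPM in progenitor-like cells. After thinning, an Eomes UMI was in 21.4%, 72.0% and 46.5% of the class. Thus the neurons of these comparisons include cells with precursor transcripts, most of all in E16, which limits what ratios against them mean. Of 3669 genes tested in E14, 11.6% were higher in members past the fold and 8.31% lower. In E16 the shares were 4.48% and 3.69% of 3392 genes, and in E18 6.93% and 4.17% of 3577. Over the 2838 genes tested in every library, 76 were higher throughout (2.68%) and 37 lower throughout (1.3%). Without E16, the library with most cells near the threshold, 158 genes were higher in both others. The median log2 ratio over the genes tested was 0.10, 0.00 and 0.02 in label order, and -0.17, -0.12 and -0.15 after scaling by trimmed mean of M values (TMM), with which 58 genes were higher throughout. A gene that is low in neurons reaches the minimum only where members are high, so the counts of higher genes and the medians of the lists below are partly set by the minimum and are given as descriptions.

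Transcription factors come first. Of 22 listed Cajal-Retzius transcription factors, 16 were tested in each library, and 11, 9 and 11 of them were higher in members past the fold and 4, 2 and 2 lower, where 11.6, 4.48 and 6.93% of all genes were higher and 8.31, 3.69 and 4.17% lower. Their median log2 ratios were 3.32, 1.39 and 3.14, values that the minimum raises, since Tp73, Mab21l1 and Zic2 reached it through members alone. Nhlh2, Lhx9, Zic2, Zic5, Nr2f2, Emx2, Mab21l1 and Tp73 were among those higher in all 3 libraries. Nhlh2, a neuronal basic helix-loop-helix factor, was at 1203 CPM in E14, 675 in E16 and 1033 in E18, against 28.4, 256 and 81.3 CPM in excitatory neurons. Its ratio was smallest in E16, where the neurons had most of it. Mab21l1, which encodes a developmental regulator related to MAB-21, was at 91.1, 77.7 and 101 CPM, against 0.717, 2.81 and 0.888 CPM. Zic2, a zinc finger factor of the medial pallium, was at 123, 133 and 175 CPM, against 2.59, 18.9 and 4.47 CPM. Nr2f2, an orphan nuclear receptor also called COUP-TFII, was at 452, 338 and 478 CPM, against 31.3, 82.4 and 29.3 CPM. Meis2, a homeodomain factor, was lower throughout, at 3.14, 40.7 and 53.6 CPM against 191, 98.9 and 231 CPM. Tbr1, a T-box factor of early-born glutamatergic neurons, was at 280, 537 and 374 CPM and not past the fold in any library.

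For the regulators Tp73, Nhlh2 and Mab21l1, high in members of all 3 libraries, the 250 bases before the start site are shown, since these are genes outside the rule that stood apart from neurons in each library. The sequences are RefSeq's for GRCr8, not the build of the counts, written 5′ to 3′ on the gene's strand. The 4 motifs searched on both strands were TAATTA (a homeodomain core), CAGCTG and CAGATG (E-boxes of basic helix-loop-helix factors) and the palindromic motif bound by early B-cell factors. No 2 of these motifs are the same on either strand. Capitals mark matches.
Tp73: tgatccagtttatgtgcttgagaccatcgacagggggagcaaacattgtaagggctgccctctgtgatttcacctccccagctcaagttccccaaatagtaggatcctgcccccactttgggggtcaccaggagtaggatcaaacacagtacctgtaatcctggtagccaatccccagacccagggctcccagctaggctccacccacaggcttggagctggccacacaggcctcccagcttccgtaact
Nhlh2: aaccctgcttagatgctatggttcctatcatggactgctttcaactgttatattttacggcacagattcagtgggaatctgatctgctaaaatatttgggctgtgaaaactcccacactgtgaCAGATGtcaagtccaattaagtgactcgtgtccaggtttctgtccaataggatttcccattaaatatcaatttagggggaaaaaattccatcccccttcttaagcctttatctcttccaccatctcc
Mab21l1: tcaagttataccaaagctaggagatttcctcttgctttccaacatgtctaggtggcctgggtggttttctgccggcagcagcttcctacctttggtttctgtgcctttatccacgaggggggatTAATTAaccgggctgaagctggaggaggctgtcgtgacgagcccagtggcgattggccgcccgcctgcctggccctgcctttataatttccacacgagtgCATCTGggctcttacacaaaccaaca
The windows are chr5:169963553-169963802 on the minus strand, chr2:192132598-192132847 on the plus strand and chr2:142093368-142093617 on the plus strand. Tp73 held none of the motifs, Nhlh2 held CAGATG beginning 127 bases before the start site, and Mab21l1 held TAATTA at 126 and the reverse strand of CAGATG at 26 bases before it. Of all 33469 windows of this length, 4.86% held TAATTA, 11.97% CAGCTG, 13.96% CAGATG and 0.738% the early B-cell factor motif. Among the 20 genes named as highest over neurons, 13 had a window, and 1, 2, 4 and 0 of them held the motifs in that order. A match describes letters and shows no binding.

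Many cortical identity factors were lower in members. Of 19 listed, 19, 18 and 19 were tested, none was higher past the fold, and 14, 6 and 9 were lower, where 8.31, 3.69 and 4.17% of all genes were lower, with median log2 ratios of -2.47, -0.60 and -0.998. Under TMM scaling 12 were lower in E18. Sox5, a factor of deep-layer neurons, was at 6.28, 36.0 and 91.4 CPM, against 319, 168 and 453 CPM. Fezf2, which specifies subcerebral projection neurons, was at 3.14, 54.0 and 30.8 CPM, against 175, 121 and 168 CPM. Sox5, Fezf2, Pou3f2, Neurod2 and Neurod6 were among those lower in every library, the last pair having defined the comparison cells. Not every factor of that list was low. Lhx2 was at 207, 664 and 479 CPM and Nfib at 1624, 1158 and 2372 CPM, neither past the fold against neurons.

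**Figure D2:**
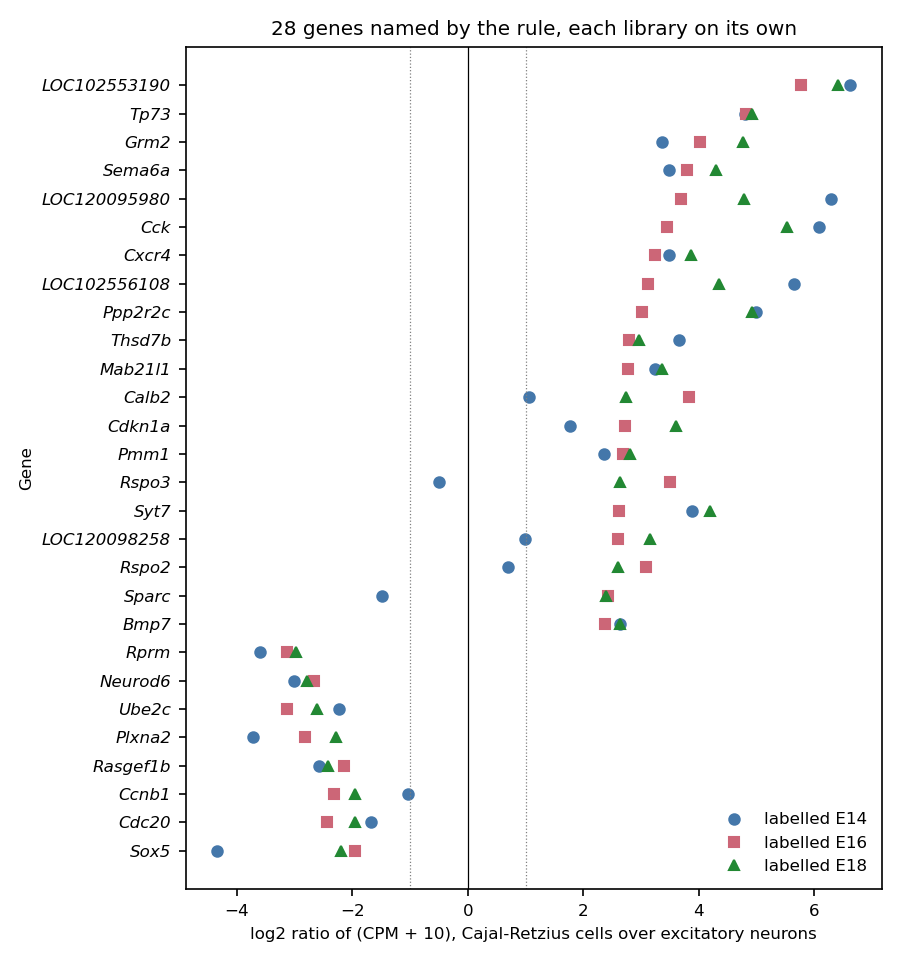
Log2 ratio of (CPM + 10) in Cajal-Retzius cells over excitatory neurons (x axis) for 28 genes named by size (y axis), with 1 symbol per library and dotted lines at -1 and 1. Tp73 sits at 4.79, 4.81 and 4.91 in label order, while Calb2, Rspo3, Rspo2 and Sparc have E14 far from the other libraries. The added 10 CPM brings the Tp73 ratios together, since neurons had 0.105, 1.92 and 0.194 CPM.

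The genes highest over neurons in both E16 and E18 were named by the smaller of the 2 ratios. LOC102553190, a long noncoding RNA that lies between Lhx1 and Mrm1 in GRCr8, led them, at 1100 CPM in E14 (987 to 1221), 619 in E16 (572 to 668) and 913 in E18 (855 to 974), against 1.27, 1.48 and 0.888 CPM in neurons. It had a UMI in 16 of 16, 74 of 85 and 65 of 67 members. LOC120095980, a long noncoding RNA overlapping Lhx5 in GRCr8, was at 785, 163 and 268 CPM against 0.148, 3.4 and 0.111 CPM. Both lie beside genes of the rule, so they are not independent of it. LOC120098258 overlaps Sema6a in that assembly, and how reads of such overlapping genes were divided is not given in the sources used here.

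Receptors and surface molecules came next. Grm2, a presynaptic metabotropic glutamate receptor, was at 110, 161 and 276 CPM in members against 1.62, 0.591 and 0.527 CPM. Cxcr4, the receptor through which meningeal Cxcl12 holds these cells at the surface, was at 135, 133 and 178 CPM against 2.91, 5.03 and 2.94 CPM. After thinning, a Cxcr4 UMI was in 80%, 42.7% and 52.2% of members, and it was also in 47.4% of GABAergic cells of E14 and 62.8% of those of E18, against 1.27% of those of E16. Before thinning it was in 15, 57 and 51 members. Sema6a, a transmembrane semaphorin, was at 242, 330 and 323 CPM against 12.5, 14.3 and 6.99 CPM. It had a UMI in 16, 75 and 67 members. Of 44 listed guidance and adhesion genes, 22, 20 and 25 were tested, and 3, 4 and 5 were higher past the fold and 10, 4 and 8 lower. Of all genes 11.6, 4.48 and 6.93% were higher and 8.31, 3.69 and 4.17% lower, so the count of higher genes in E14 was near the background. Sema6a was the only one higher in all 3 libraries, and Unc5d, Nrp1, Plxna2 and Epha5 were lower in all 3. Plxna2, a plexin that binds semaphorins, had 0 UMIs in E14 members, where the floor of 3 UMIs is 9.42 CPM, and against that floor was at least 12.9-fold lower than in neurons. It was at 21.8 CPM in E16 and 31.8 in E18, against 214 and 192 CPM. With the stricter cell filter (at least 2000 genes and at most 5% mitochondrial UMIs), which left 0, 15 and 6 members, the smaller of its E16 and E18 differences was -0.95 on the log2 scale, no longer past the fold. That filter also took the smaller of the E16 and E18 ratios of Tp73 from 4.81 to 3.96, of LOC102553190 from 5.78 to 4.08, of LOC120095980 from 3.69 to 1.79, of Grm2 from 4.01 to 2.67 and of Cck from 3.44 to 1.202. It took those of Cdkn1a from 2.72 to 1.56, of Syt7 from 2.61 to 1.95, of Sox5 from -1.95 to -1.10, of Neurod6 from -2.66 to -1.84 and of Rspo3 from 2.64 to 3.90, each with its direction kept.

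In the reelin pathway beyond the ligand, few genes reached the minimum. Of 15 listed genes only 6 reached the minimum in each library, none was higher past the fold, and Dab1 in E14 was the only one lower, at 6.28 CPM against 104. Lrp8 was at 34.6, 50.2 and 61.6 CPM in members, against 67.4, 34.0 and 89.2 in neurons. Vldlr was at 3.14, 8.53 and 8.94 CPM in members, under the minimum.

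Among transmitter genes, the marker of glutamate release was the one higher in members. Slc17a6, the vesicular glutamate transporter VGLUT2, was at 267, 262 and 359 CPM against 24.5, 122 and 58.1 CPM, and was past the fold in all 3 libraries, though not in E16 under TMM scaling. Slc17a7, VGLUT1, was at 0, 10.4 and 9.93 CPM against 23.5, 53.1 and 48.5 CPM. The GABA-synthesis genes were near 0, Gad1 at 0, 0.947 and 1.99 CPM and Gad2 at 6.28, 0.947 and 0 CPM. Slc12a2, the chloride importer NKCC1, was at 9.42, 32.2 and 50.6 CPM against 20.5, 21.1 and 25.3 CPM. Slc12a5, the exporter KCC2, was at 0, 2.84 and 1.99 CPM, with no more than 3 UMIs in a library. Among 43 listed transmitter receptors, 8, 5 and 6 were tested, and 2, 3 and 2 were higher past the fold and 3, 0 and 0 lower. Of all genes 11.6, 4.48 and 6.93% were higher and 8.31, 3.69 and 4.17% lower. Grm2 and the cannabinoid receptor Cnr1 were higher in all 3 libraries, against 2.68% of all genes, and Gabbr1 in E16, though not under TMM scaling. Gria2, Grin2b and Gabrb2 were lower in E14, where 8.31% of all genes were. Cnr1 was at 490, 1013 and 1146 CPM against 170, 346 and 247 CPM.

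Channel genes were sparse. Of 42 listed, 7, 3 and 3 reached the minimum, too few for their direction to be read. Kcnk2, a background potassium channel also called TREK-1, was past the fold in all 3 libraries, at 273, 59.7 and 202 CPM against 30.7, 10.8 and 22.8 CPM. Among 30 genes of the release machinery, of which 10 were tested in every library, Syt7, a calcium sensor of vesicle fusion, was higher in all 3 libraries, at 342, 182 and 313 CPM against 13.9, 21.4 and 7.60 CPM. Syt4 was lower in all 3, at 15.7, 5.68 and 24.8 CPM against 224, 64.3 and 113 CPM. Of all genes 2.68% were higher throughout and 1.3% lower throughout. By library 15, 10 and 11 release genes were tested, and 5, 2 and 3 were higher past the fold and 1, 1 and 1 lower. The shares over all genes were 11.6, 4.48 and 6.93% higher and 8.31, 3.69 and 4.17% lower. Of 26 cytoskeletal and RNA-binding genes, 21 were tested in every library and 3 of them were higher throughout, against 2.68% of all genes: Gap43, a growth cone protein, Ina, an intermediate filament, and Tubb2a, a tubulin. By library 23, 21 and 21 of the list were tested, and 3, 6 and 5 were higher past the fold and 4, 0 and 0 lower. Of all genes 11.6, 4.48 and 6.93% were higher and 8.31, 3.69 and 4.17% lower. The higher count in E14 and the lower counts in E16 and E18 were near these shares. Those lower in E14 were Dcx, Map2, Nefm and Rbfox1. Gap43 was at 3946, 917 and 2289 CPM against 857, 384 and 696 CPM.

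Of 18 listed genes of the hem, the septum and the pallial borders, 2, 5 and 3 reached the minimum, and nothing is read from their direction. Rspo3, a potentiator of Wnt signalling made by the hem, was at 18.8 CPM in E14 (6.92 to 41.0), 278 in E16 (247 to 311) and 234 in E18 (205 to 266), against 30.6, 15.5 and 29.3 in neurons. In E14 it was under the minimum in both classes. Bmp7, a bone morphogenetic protein, was at 53.4, 51.2 and 54.6 CPM against 0.274, 1.77 and 0.444, just over the minimum. It was past the fold in all 3 libraries, and under TMM scaling no longer in E14 or E16. Rspo2 in E16 came mainly from few cells, with 67.3% of its 150 UMIs in 3 members. Without the members that carried Sox2, cycling, globin or Ttr UMIs, the smaller of its E16 and E18 ratios went from 2.61 to 0.97. Sparc, an extracellular matrix protein, had 69.7% of its E16 UMIs and 92.5% of its E18 UMIs in 3 members each, and its ratio went from 2.40 to -0.23 without those cells. Cdkn1a, the cell-cycle inhibitor p21, was at 25.1, 80.5 and 123 CPM against 0.295, 3.70 and 0.916, and its ratio was 2.72 with those cells and 3.00 without.

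Between libraries, members of E16 over E14 gave 9.91% of 3755 genes higher past the fold and 12.1% lower. E18 over E16 gave 2.16% higher (75 of 3480) and 1.21% lower (42), and E18 over E14 gave 8% higher and 5.15% lower of 3711. The 3 comparisons share libraries and are not independent, and the E14 sums rest on 318320 UMIs of 16 cells, against 1055647 of 85 in E16 and 1007029 of 67 in E18. Excitatory neurons gave 208 higher and 229 lower of 3437 genes for E16 over E14, 78 and 34 of 3256 for E18 over E16, and 86 and 72 of 3358 for E18 over E14. With a lower minimum of 20 CPM, E16 over E14 gave 810 higher and 657 lower, so that most called genes were then higher. The split for E18 over E16 leaned further to higher genes without the members that carried Sox2, cycling, globin or Ttr UMIs, at 89 higher and 24 lower.

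**Figure D3:**
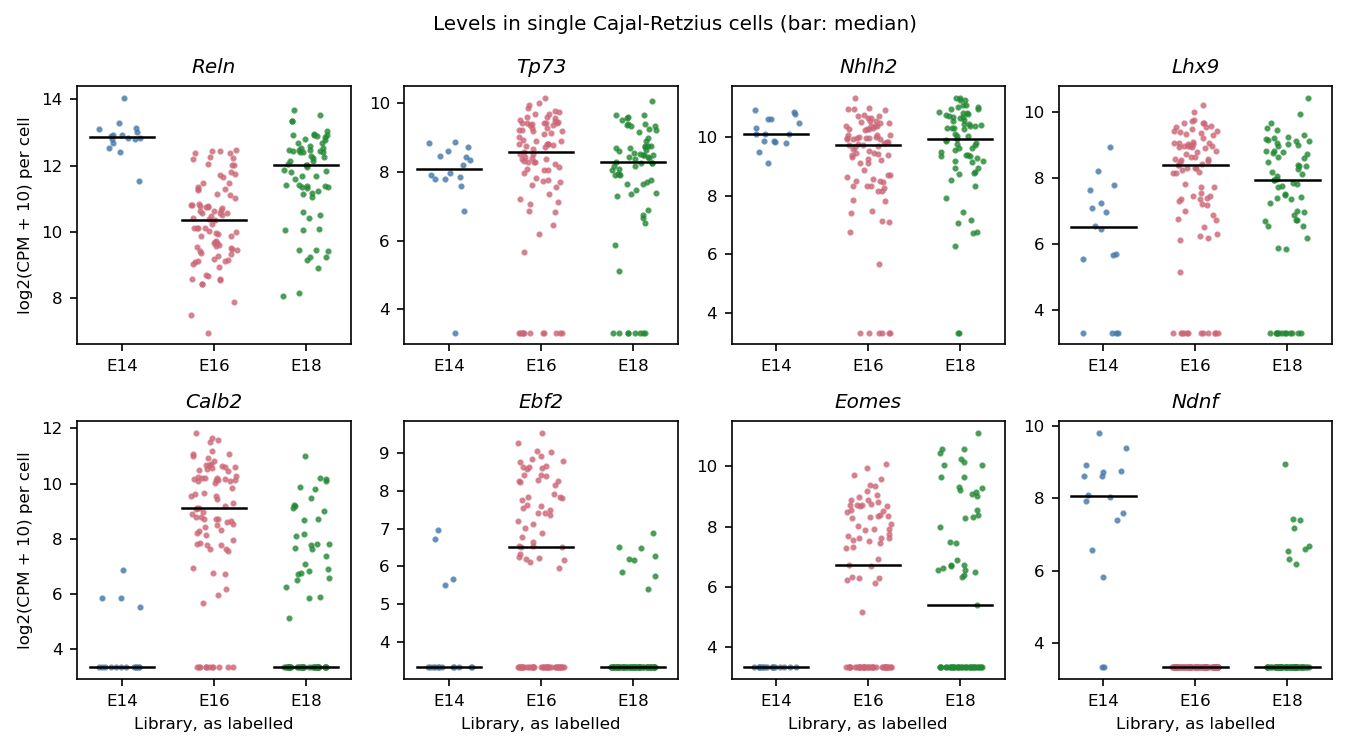
Levels of 8 genes in single Cajal-Retzius cells, as log2(CPM + 10) (y axes, which differ in range), by library as labelled (x axes), with 1 point per cell and a bar at the median. Points on the lowest line are cells with 0 UMIs: Ndnf has all 85 E16 cells there, Eomes all 16 E14 cells, and Tp73 has few in any library.

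A first group of genes was highest in E16 members. Calb2, the calcium-binding protein calretinin, was at 15.7 CPM in E14 (5.10 to 36.7), 694 in E16 (645 to 746) and 189 in E18 (163 to 217), with a UMI in 4, 74 and 32 members. The intervals did not overlap, and neurons had 2.38, 39.8 and 19.6 CPM. After thinning, Calb2 was found in 13.3%, 80.5% and 32.8% of members, beside 0.909%, 5.86% and 3.31% of excitatory neurons. Ebf2, an early B-cell factor, was at 15.7, 134 and 9.93 CPM, and in excitatory neurons at 0.211, 90.2 and 2.94 CPM. Its higher level in E16 was thus found in both classes, with log2 ratios of E18 over E16 of -2.85 in members and -2.95 in neurons.

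Lhx9, Eomes and Dcx were lowest in E14 in both members and neurons, though Dcx in neurons ran only from 425 to 525 CPM. Lhx9, a LIM-homeodomain factor, was at 94.2 CPM in E14, 311 in E16 and 262 in E18, and in neurons at 2.19, 111 and 18.8 CPM. Eomes, the T-box factor also called Tbr2, had 0 UMIs in the 16 E14 members, and was at 182 CPM in E16 and 301 in E18, at least 19.3-fold and 31.9-fold higher against the floor of 3 UMIs. In neurons it was at 160, 607 and 469 CPM. Its UMIs in members came from 50 of 85 and 34 of 67 members. Dcx, the microtubule protein doublecortin of migrating neurons, was at 107, 492 and 417 CPM in members, and in neurons at 425, 473 and 525 CPM. Dcx was lower past the fold in members of E14 and not in those of E16 or E18, a difference that was not tested.

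Several genes highest in E16 rested on few cells. Id3, an inhibitor of basic helix-loop-helix factors, had 64.8% of its 159 E16 UMIs in 3 members, and Wnt8b, a hem Wnt, 78.8% of 118. Rspo1 had 74.8% of 151. Ahsp, an erythroid chaperone, had 95.2% in 1 member, and the replication genes Pclaf and H1f5 had 56.6% and 60.6% in 3. Without the members that carried Sox2, cycling, globin or Ttr UMIs, the log2 ratio of E18 over E16 went from -2.43 to -0.19 for Id3, from -1.89 to -0.45 for Wnt8b, from -1.84 to -0.68 for Pclaf and from -1.81 to 0.84 for Rspo1. Those of Calb2 and Ebf2 were -2.12 and -3.38 without them. With the stricter cell filter, those of Calb2, Pclaf and H1f5 were -0.80, -0.87 and -0.80, no longer past the fold.

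A second group was lowest in E16 members. Cck, the neuropeptide cholecystokinin, was at 2915 CPM in E14 (2731 to 3109), 105 in E16 (86.5 to 127) and 684 in E18 (634 to 737), against 33.4, 0.591 and 5.05 CPM in neurons. Every E14 member had a Cck UMI, 17 of 85 did in E16 and 41 of 67 in E18. Optc, which encodes the extracellular matrix protein opticin, was at 449, 10.4 and 374 CPM in members and 5.99, 19.2 and 17.6 CPM in neurons. It had a UMI in 14, 6 and 50 members. The Optc log2 ratio of E18 over E16 was 4.23 in members and -0.08 in neurons, and 1.88 in members with the stricter cell filter. Hs3st1, a heparan sulfate sulfotransferase, was at 292, 0.947 and 50.6 CPM, with 1 UMI in all E16 members together. Spock2, a matrix proteoglycan, was at 402, 20.8 and 120 CPM, and Ramp2, an accessory protein of calcitonin-family receptors, at 346, 21.8 and 113 CPM. Each of these 3 was lowest in E16 and highest in E14 with intervals that did not overlap, and in neurons their log2 ratios of E18 over E16 were 0.21, 0.69 and 0.17, none past the fold. Neurons were also highest in E14 and lowest in E16, at 11.2, 2.81 and 4.86 CPM for Hs3st1, 34.7, 7.25 and 17.8 CPM for Spock2 and 55.2, 11.5 and 14.3 CPM for Ramp2. Their log2 ratios of E16 over E14 were -0.73, -1.37 and -1.60, beside -4.79, -3.74 and -3.48 in members, and Ramp2 was the one of these to reach the minimum in neurons and be past the fold there. With the stricter cell filter the ratios of E18 over E16 in members were 1.91 for Cck, 3.60 for Hs3st1, 2.998 for Spock2 and -0.59 for Ramp2.

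Further genes of this group had log2 ratios of at least 1 in neurons too or came from few members. Csnk2a2, a casein kinase subunit, was at 75.4, 2.84 and 59.6 CPM in members and 60.0, 11.8 and 55.4 in neurons. Grin2b, a glutamate receptor subunit, had log2 ratios of E18 over E16 of 1.94 in members and 1.95 in neurons. Hrk, a pro-apoptotic BH3-only gene, was at 56.5, 12.3 and 122 CPM, with 65.9% of its E18 UMIs in 3 members. Npy, a neuropeptide, was at 280, 22.7 and 72.5 CPM, with 53.9% of its E14 UMIs in 1 member. LOC120095249, a noncoding RNA overlapping Tenm2 in GRCr8, does not share this order: it had 0 UMIs in E14 members and was at 3.79 CPM in E16 and 52.6 in E18, with 94.3% of its E18 UMIs in 3 members. In neurons it was at 653, 1.18 and 153 CPM.

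**Figure D4:**
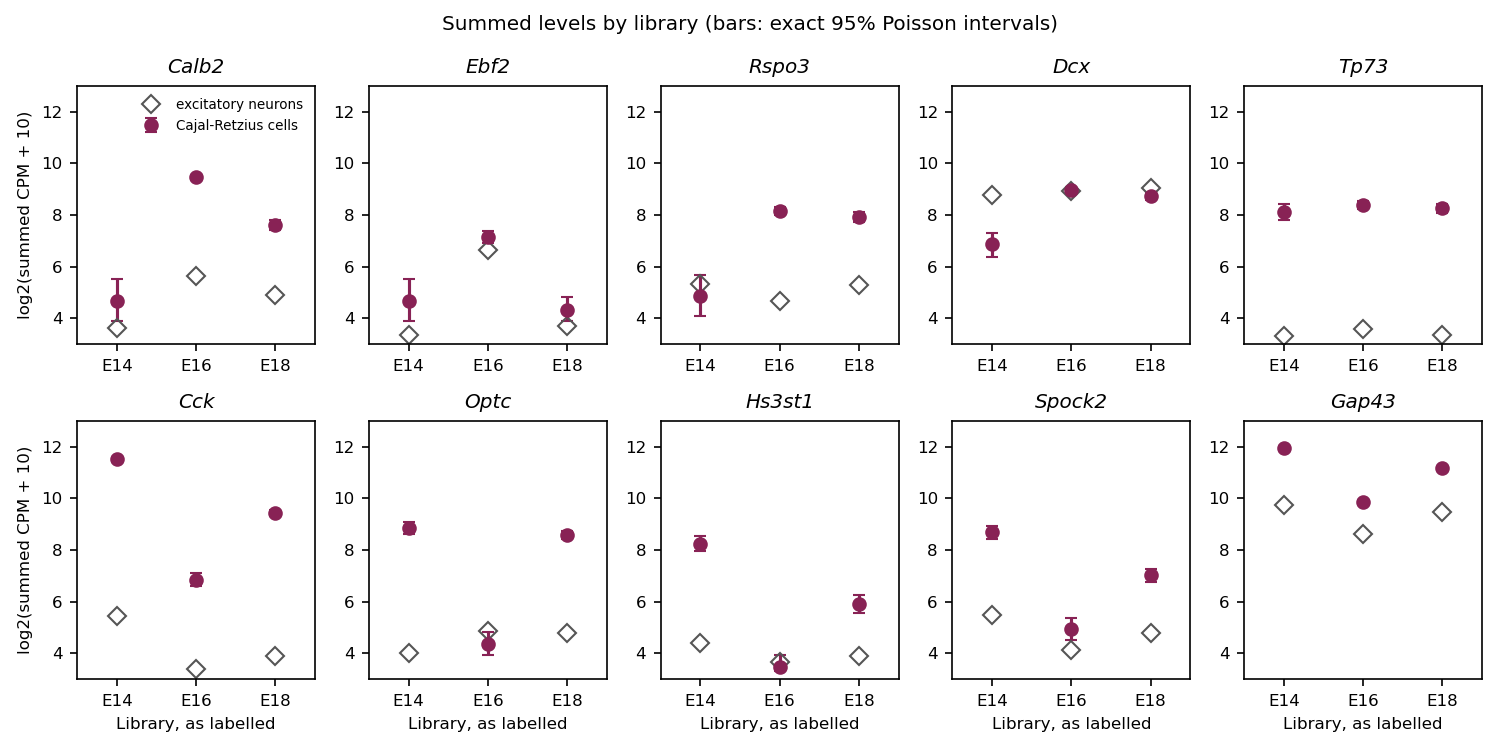
Summed levels of 10 genes, as log2(CPM + 10) (y axes, equal in range), by library as labelled (x axes), in Cajal-Retzius cells (filled circles, with exact 95% Poisson intervals) and excitatory neurons (open diamonds). In Cajal-Retzius cells Cck, Optc, Hs3st1 and Spock2 are lowest in E16, Calb2 and Ebf2 are highest there, and Tp73 stays between 270 and 325 CPM, while in excitatory neurons Optc is highest in E16.

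Within libraries, members varied most in few genes. Each member was thinned to 5000 UMIs, and the Fano factor (variance over mean) was taken for genes with a mean of at least 0.5 UMI. Its median was 1.00 over 1644 genes in E14, 1.13 over 1552 in E16 and 1.10 over 1619 in E18. In E16, Ttr (42.1) and Cck (12.6) were carried by 9 and 10 of 82 members, with up to 49 and 20 UMIs. The Ttr factors rested mostly on 1 cell each: before thinning 1 member held 96.8% of the Ttr UMIs in E16 and 1 member 93.7% in E18. Cdkn1c, which encodes the cell-cycle inhibitor p57, had a factor of 9.14, with 1 UMI at the median and 35 at most, and Pcp4, a calmodulin-binding protein, one of 9.13. H2az1, a histone variant abundant in dividing cells, had one of 7.90. Tmsb10 (15.6), Tuba1a (8.14), Tmsb4x (8.08), Nnat (7.79) and Reln (6.4) completed the 10 highest there, Reln being a gene of the rule. In E18 Ttr (143) and Cdkn1c (11.9) were the highest, and in E14 Npy (11.5), found in 5 of 15 members.

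Of 18 listed survival and cell death genes, 7 were tested in each library, and 0, 2 and 0 were higher than in neurons past the fold and 2, 1 and 2 lower. Over all genes the shares were 11.6, 4.48 and 6.93% higher and 8.31, 3.69 and 4.17% lower, and counts this small cannot be set apart from them. None was past the fold in every library. Bax, an effector of neuronal apoptosis, was at 330, 309 and 339 CPM against 281, 227 and 215 CPM in neurons, not past the fold in any. Bcl2l1, which protects neurons from apoptosis, and Ntrk2, a neurotrophin receptor, were the 2 higher in E16, Bcl2l1 not under TMM scaling.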

How the data were processed

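Droplet-based single-cell RNA sequencing of 3 libraries was analysed. The deposited matrices hold raw UMI counts per gene and barcode, for 29772 genes, and are not normalized. Cell Ranger 6.0.1 and the build mRatBN7.2 are named in the submitters' processing notes. The files hold 62740631, 80974234 and 73727823 UMIs in label order. The members and lists were chosen with earlier results of these data known. Counts were summed per library and class with Python 3.11.15, numpy 2.4.6, scipy 1.17.1 and pandas 2.3.3. In all 183 genes were left out of calls: the 7 rule genes and the mitochondrial, ribosomal, haemoglobin, Y-linked, Xist and Tsix genes. Gene positions and neighbours come from RefSeq GRCr8, which held 87.9% of the symbols. Named genes were the 20 highest and 10 lowest against excitatory neurons by the smaller of the E16 and E18 ratios, the 12 highest and 12 lowest of E18 over E16, the 10 highest Fano factors and all listed genes. Progenitor-like cells had at least 3 UMIs of Sox2, Pax6 and Hes5 together and at most 2 of Dcx and Stmn2, and GABAergic cells at least 3 of Gad1 and Gad2 and 1 of Dlx1, Dlx2, Dlx5 or Dlx6. Doublets were not removed in the values given. Scores of Scrublet (Scanpy 1.11.5) were used as an alternative, removing the highest at 0.8% per 1000 cells, since its own threshold marked 0.0385% of E16 cells. TMM factors came from edgeR 4.0.16 and serve as scaling only. The steps were tested on simulated counts drawn without variation between cells, so that test does not bear on genes held by few cells. Some named genes are not reported here.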

Additional observations from a re-analysis of the deposited data

How the results depend on the processing

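No paired analysis was possible because each label has 1 library. The member share of E16 moved with the rule: it was 2.02% with Reln at 3 or more UMIs, 0.924% with Reln at 10 or more, 0.905% with 3 of the 6 other genes, 0.963% with Reln at 1000 CPM or more (added after seeing the data) and 0.805% after thinning to 5000 UMIs, where the E18 share was 0.824%. With at least 2000 genes and at most 5% mitochondrial UMIs the shares were 0, 0.41 and 0.224% in label order, with 0, 15 and 6 members. Under that filter 602 genes were past the fold for E18 over E16, and no count needing E14 could be given. With a minimum of 20 CPM, 1467 genes were past the fold in E16 over E14 and 911 in E18 over E14, against 825 and 488. In E18 over E16 there were 257, against 117. With no minimum these comparisons gave 1896, 1230 and 332, and 141 genes were higher than neurons in every library. Leaving out E16 gave 158 (added after seeing the data).

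Of 810 values for 54 named gene results, 647 lay within 0.5 of the main log2 ratio and 10 had the opposite sign. The settings with a minimum of 20 CPM and with no minimum cannot change a log2 ratio, so their values are among the 647 by construction. Sparc over neurons was -0.25 without members carrying GABAergic, cycling, vascular, choroid or microglial UMIs, -0.16 with a Tp73 UMI required, -0.47 with Reln at 1000 CPM and -0.23 without members carrying Sox2, cycling, globin or Ttr UMIs. The Tp73, 1000 CPM and Sox2 settings were added after seeing the data. For E18 over E16, Rspo1 was 0.81 without the GABAergic or otherwise mixed members, 0.58 with Reln at 1000 CPM and 0.84 without the Sox2 or otherwise marked members. Id3 was 0.51 with Reln at 1000 CPM, and H4f3 was 0.081 without the Sox2 or otherwise marked members. Ramp2 was -0.59 under the strict cell filter. Ratios over genes near 0 in neurons depend on the CPM added. With 1 CPM in place of 10, the smaller of the E16 and E18 ratios over neurons went from 4.81 to 6.80 for Tp73. It went from 4.01 to 6.67 for Grm2 and from 5.78 to 7.97 for LOC102553190. Depth limits the E14 values, since its 16 members put the floor of 3 UMIs at 9.42 CPM. Doublet removal took 158 of 4444, 216 of 5193 and 259 of 5690 kept cells in label order. Of members it took 0 of 16, 6 of 85 and 13 of 67. In E18 the share removed was higher among members than among all kept cells. The causes were not tested.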

Other observations

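The kept cells with at least 3 Tp73 UMIs that the rule left out numbered 73 in E16 and 18 in E18, with none in E14. The 73 E16 cells had a median of 9736 UMIs, beside 9964 in members. They carried Reln at 140 CPM (120 to 164), a gene the rule used. Among genes it did not use, the neuronal gene Stmn2 was at 522 CPM (481 to 566) against 3200 in members, Nhlh2 at 158 (136 to 183) against 675 and Calb2 at 48.0 (36.1 to 62.4) against 694. Some genes of the hem and of precursors are given as examples picked after their values were seen. Lmx1a, a roof plate and hem factor, was at 109 CPM (90.7 to 130) against 37.9 and Neurog2, a proneural factor, at 150 (128 to 174) against 93.8, and these intervals did not overlap those of the members. For the next genes they did: Rspo3 was at 318 (286 to 353) against 278, the cycling gene Mki67 at 128 (108 to 151) against 99.5, Wnt8b at 93.3 (76.4 to 113) against 112 and Sox2 at 132 (111 to 154) against 144. A UMI of Lmx1a was found in 42 of these 73 cells and in 10 of 85 members, of Sox2 in 33 and 13, and of Mki67 in 28 and 18. One of Rspo3 was found in 65 and 47, of Neurog2 in 46 and 33 and of Wnt8b in 38 and 15. Each of these genes was thus found in a larger share of these cells than of members, also where the intervals of the sums overlapped. Of the 118 Wnt8b UMIs of members, 1 member held 54.

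The 18 E18 cells were deeper than members, with a median of 17318.5 UMIs against 12581. A few cells held much of their counts, with 39 of the 89 Lmx1a UMIs and 24 of the 90 Sox2 UMIs in 1 cell each, so summed levels are not compared. A UMI of Lmx1a was found in 13 of the 18 cells and 21 of 67 members, of Sox2 in 11 and 16, of Rspo3 in 14 and 46, of Eomes in 10 and 34, of Neurog2 in 8 and 33 and of Stmn2 in 9 and 65. The depths differ, and these cells were not thinned. Both sets were chosen by Tp73 and by failing the rule, so the values are a description.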
